A study of Mus musculus with 6 samples.

Results

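The genes described are Scn4b, a sodium channel beta subunit, the connexins Gja1, Gja5 and Gjc1, and the HCN channels Hcn2 and Hcn4. They were chosen by symbol, 6 of the 34745 genes in the deposited gene table, and all 6 were found and passed the filter on low counts, reaching its minimum in every library. The values are RNA-seq counts from the left ventricle of male wild-type C57BL/6 mice, a common inbred strain, whose age the labels give as 8 weeks. In 3 libraries the label is TAC, transverse aortic constriction, surgery that ties down the aortic arch and makes the ventricle pump against a raised pressure. In the other 3 it is Sham, the same operation without the ligature, and the tissue of both groups was taken after 6 weeks. Libraries are written TAC 1 to 3 and Sham 1 to 3 after their labels. Whether each is a mouse of its own is not in the labels, and the p-values measure only the spread among these libraries, which may be technical.

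Total counts over genes ran from 17399510 to 28401399 per library, 1.63 times apart. Levels are given as CPM, counts relative to the library total after TMM scaling, or as FPKM, which also divides by gene length, where genes are compared with each other. The tissue label was checked against markers: the 12 cardiomyocyte genes listed summed to 49932 to 81059.5 CPM in every library. The atrial myosin light chain gene Myl7 averaged 5.57 CPM beside 1787 CPM for the ventricular Myl2. Myl7 was uneven, at 0.0967, 1.43 and 11.6 CPM in TAC 1, 2 and 3. In Sham 1, 2 and 3 it had 9.95, 0.141 and 10.2 CPM. What made Myl7 uneven was not tested. The group labels were checked with Nppa, the atrial natriuretic peptide gene known to be raised by pressure overload. It stood at 83.9 ± 17 CPM (SD, n = 3) in TAC 1 to 3 and at 594.8 to 1894 CPM in Sham 1 to 3. For Nppa this is the reverse of what the labels say. Among other genes planned for this check, Ankrd1 and, by a narrow margin, Nppb were also higher in every library labelled Sham. Myh7 did not keep the groups apart. It had 212, 65.7 and 6050 CPM in TAC 1, 2 and 3 and 1816, 6323 and 2072 CPM in Sham 1, 2 and 3. Every group and direction below is therefore given by label only.

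Voltage-gated sodium channels carry the upstroke of the cardiac action potential, and their small beta subunits set the gating and placement of the pore-forming alpha subunits. Connexins join in hexamers to form gap junction channels, through which the action potential passes from cell to cell. Gja1 encodes Cx43, the main connexin of working ventricular muscle, and Gja5 encodes Cx40, found in atrial muscle, the fast conduction system and arterial endothelium. Gjc1 encodes Cx45, known from the nodes and conduction system. HCN channels open on hyperpolarization and carry the pacemaker current, with Hcn4 the main form of the sinoatrial node and Hcn2 the form best known from working muscle.

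The RefSeq promoter windows on GRCm38.p6, 250 bases before to 50 after the annotated start, are shown for 4 of the genes. These are the connexin whose groups were apart (Gja5), the most abundant connexin (Gja1) and both HCN genes. All 4 read on the plus strand, at chr3:97032152-97032451, chr10:56377050-56377349, chr9:58822699-58822998 and chr10:79716384-79716683 for Gja5, Gja1, Hcn4 and Hcn2. Capitals mark matches on either strand to the motifs searched, which were AGGTGTG for T-box factors, either CACTTG or else AAGTGG for NKX2-5, then AGATAA for GATA factors, GGGCGG for SP1, CACCC for KLF factors, CAGCTG for E-box factors and lastly the TATA box TATAAA. KLF and SP1 matches may overlap.
Gja5: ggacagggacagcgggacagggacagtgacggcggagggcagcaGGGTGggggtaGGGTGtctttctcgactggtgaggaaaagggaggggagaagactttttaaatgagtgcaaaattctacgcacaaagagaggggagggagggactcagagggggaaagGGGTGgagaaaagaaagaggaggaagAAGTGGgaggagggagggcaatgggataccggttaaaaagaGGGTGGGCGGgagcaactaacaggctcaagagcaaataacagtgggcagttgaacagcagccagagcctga
Gja1: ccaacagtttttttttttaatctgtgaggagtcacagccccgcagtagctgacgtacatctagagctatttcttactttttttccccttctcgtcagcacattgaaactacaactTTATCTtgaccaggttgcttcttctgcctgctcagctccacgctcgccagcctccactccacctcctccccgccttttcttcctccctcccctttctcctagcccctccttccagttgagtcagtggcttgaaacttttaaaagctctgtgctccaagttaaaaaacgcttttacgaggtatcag
Hcn4: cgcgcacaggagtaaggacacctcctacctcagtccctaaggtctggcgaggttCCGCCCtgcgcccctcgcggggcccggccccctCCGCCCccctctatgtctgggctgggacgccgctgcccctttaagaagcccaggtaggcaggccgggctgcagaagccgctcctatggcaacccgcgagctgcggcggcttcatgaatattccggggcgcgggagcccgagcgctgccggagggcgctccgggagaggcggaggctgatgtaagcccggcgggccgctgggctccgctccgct
Hcn2: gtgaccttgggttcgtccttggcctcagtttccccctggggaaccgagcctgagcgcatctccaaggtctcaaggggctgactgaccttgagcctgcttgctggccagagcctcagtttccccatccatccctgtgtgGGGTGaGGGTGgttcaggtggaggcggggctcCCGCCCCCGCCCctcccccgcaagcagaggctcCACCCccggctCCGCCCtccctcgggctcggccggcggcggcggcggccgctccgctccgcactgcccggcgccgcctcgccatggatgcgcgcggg

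The Gja5 window held 4 KLF boxes, 1 SP1 box that overlaps the last of them, and 1 AAGTGG, while the Gja1 window held a GATA match alone. Hcn4 held 2 SP1 boxes, and Hcn2 held 3 SP1 and 3 KLF boxes. Of 32851 promoters of this length, 57.5% hold a KLF box, 35.7% an SP1 box, 16.9% AAGTGG and 11.2% the GATA motif. None of these motifs is therefore particular to these genes. The shares count promoters with at least 1 match and do not say how usual several in the same window are. The G and C content was 55.7% for Gja5, 47.7% for Gja1, 71.7% for Hcn4 and 72.3% for Hcn2. The window of Scn4b (66.3% G and C) matched none of the motifs. That says only that these letters are absent from that window.

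Per length, Gja1 stood far above the other 5 genes. Its FPKM was 144.5 on average over the 6 libraries (range 123 to 177), and its lowest library lay above the highest of any other member. Scn4b followed with a mean FPKM of 7.60 (3.21 to 13.2), Gjc1 with 4.86 (3.83 to 5.69), Hcn2 with 3.13 (1.85 to 6.20), Hcn4 with 1.47 (0.566 to 2.50) and Gja5 with 0.983 (0.22 to 1.63). Below Gja1 the ranges of each gene and the next overlapped. Hcn2 was above Hcn4 in 6 of 6 libraries, whereas Scn4b was above Gjc1, Gjc1 above Hcn2 and Hcn4 above Gja5 in 5 of 6. The members also differed in how much they varied. The highest library exceeded the lowest 1.48-fold in CPM for Gja1 and 1.48-fold for Gjc1, below the median of 1.65-fold over all tested genes. The same ratio was 3.41 for Hcn2, 4.04 for Scn4b, 4.51 for Hcn4 and 7.40 for Gja5, and 96.6% of tested genes had a smaller ratio than Gja5.

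**Figure D1:**
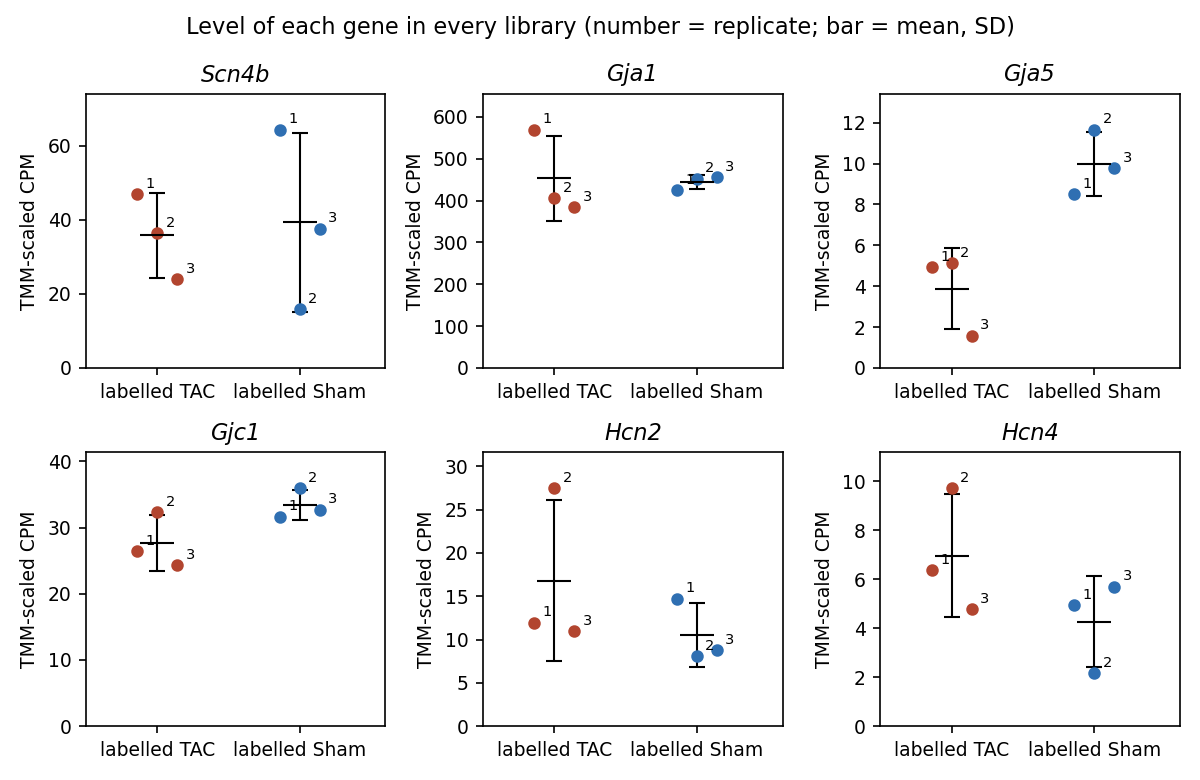
TMM-scaled CPM (vertical axis, from 0) of each of the 6 genes in every library, numbered by replicate, with group mean and SD as bars. The 3 libraries labelled TAC lie below the 3 labelled Sham for Gja5, between 1.58 and 5.14 against 8.51 and 11.7 CPM, and the groups overlap for the other 5 genes.

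None of the 6 genes passed an adjusted p of 0.05 in edgeR's quasi-likelihood test, where 1.43% of the 15198 genes tested did, 0.322% higher in the libraries labelled TAC and 1.11% in the Sham-labelled ones. In limma on log2(FPKM + 0.1) none passed either, with 1.88% of all tested genes past the threshold. A log2 difference of at least 1 in size was seen in Gja5 alone, and in 6.02% of all tested genes. At an unadjusted p under 0.05 Gja5 alone of the 6 passed, against 20.9% of all tested genes. DESeq2 called Gja5 at an adjusted p of 0.0126, with 7.79% of all tested genes called. In Gja5 alone the 2 groups did not overlap, which was so in 27% of all tested genes and, with Sham the higher, in 13.6%. With 6 members, a count of 1 is near the number these shares give, and nothing is read from it about the members as a group. Over all genes, 49 were higher in the libraries labelled TAC and 168 in the Sham-labelled ones, a split that was 42 and 296 without TMM and 38 and 2178 when libraries were scaled to the cardiomyocyte markers, a scaling under which 14.6% of genes passed. That last scaling moved the median log2 difference of all tested genes from 0.01 to -0.43.

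Among the 3 connexins, Gja5 (ENSMUSG00000057123) differed most. It had 4.93, 5.14 and 1.58 CPM in TAC 1, 2 and 3 and 8.51, 11.7 and 9.77 CPM in Sham 1, 2 and 3. Every library labelled Sham was above every library labelled TAC, and TAC 3 was the lowest of all. The underlying counts were 102, 101 and 31 against 178, 330 and 180, and the 31 counts of TAC 3 have an exact 95% Poisson interval of 21.1 to 44.0, which covers counting error only. The fitted difference was 2.57-fold with Sham the higher (log2 difference, labelled TAC minus labelled Sham, -1.36, SE 0.39, 95% interval -2.26 to -0.46). The edgeR adjusted p was 0.119 and ran from 0.00945 to 0.305 over the alternatives. Without TAC 3 the log2 difference was -0.99 and without TAC 2 it was -1.61, and the estimate was smallest, at -0.68, in limma on log2(FPKM + 1), where the pseudocount shrinks the difference of a gene at this level. Scaled to the cardiomyocyte markers it was -1.86, beside the shift of -0.43 in the median gene.

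The counted locus of Gja5 is wide. The deposited table gives it as chr3:96904693-97077416 on GRCm38, 172724 bp, while the RefSeq gene spans 21233 bp from 97032402 to 97053634. Gpr89 overlaps its lower end with 456 to 641 counts per library. The sources used here do not say how reads of overlapping genes were assigned.

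Gja1 (ENSMUSG00000050953, chr10:56377300-56390419 on GRCm38) was nearly level. It had 569.6, 406 and 385 CPM in TAC 1, 2 and 3 and 426, 452 and 456 CPM in Sham 1, 2 and 3. The libraries labelled Sham lay inside the range of those labelled TAC, of which TAC 1 was the highest of all. The fitted log2 difference was 0.03 (SE 0.16, adjusted p = 0.940), and its 95% interval of -0.35 to 0.40 corresponds to ratios of labelled TAC to labelled Sham between 0.787 and 1.32. The sign was negative under 6 of 16 alternatives, so no direction is given. Its interval leaves out a 2-fold difference in either direction.

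Gjc1 (ENSMUSG00000034520, chr11:102799579-102819700) had 26.4, 32.4 and 24.3 CPM in TAC 1, 2 and 3 and 31.7, 36.0 and 32.7 CPM in Sham 1, 2 and 3. The groups overlapped only through TAC 2, which lay above Sham 1. The log2 difference was -0.27 (SE 0.14, 95% interval -0.59 to 0.05, adjusted p = 0.305) and negative under all 16 alternatives. It passed under cardiomyocyte scaling alone (-0.72, adjusted p = 0.0442), where the median gene stood at -0.43.

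Shares within a library do not depend on how libraries are scaled. Of the summed FPKM of the 3 connexins, Gja1 made up 95.2% to 97.4% in every library. Gja5 made up 0.368%, 0.529% and 0.173% in TAC 1, 2 and 3 and 0.835%, 1.07% and 0.896% in Sham 1, 2 and 3. Its groups did not overlap, with means of 0.357% ± 0.178 (SD, n = 3) and 0.934% ± 0.123. The exact two-sided permutation p was 0.1, the smallest that 3 against 3 allows, and 0.367 after Benjamini-Hochberg adjustment over the 11 shares tested. The share of Gjc1 was 2.23% to 3.76% in TAC 1 to 3 and 3.39% to 3.73% in Sham 1 to 3 (exact permutation p = 0.4, adjusted p = 0.733), and those ranges overlapped.

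Of the 20 connexin genes in the table, 7 were tested. The estimate was higher for TAC in 3 and for Sham in 4, and none passed. At an unadjusted p under 0.05 there were 3, beside 20.9% of all tested genes, and DESeq2 called 1, beside 7.79%. Their median log2 difference was -0.27, beside 0.01 for all tested genes. Gja4, a connexin of arterial endothelium, had 5.51, 7.84 and 6.15 CPM in TAC 1, 2 and 3 and 9.90, 11.7 and 8.52 CPM in Sham 1, 2 and 3. Its groups did not overlap either (log2 difference -0.63, SE 0.20, adjusted p = 0.136). Gja3, a connexin best known from the lens, was on the other side, at 4.46 ± 0.341 against 2.62 ± 0.801 CPM (log2 difference 0.77, adjusted p = 0.145). Of the pannexins, which form membrane channels but not gap junctions, Panx1 had 2.13, 1.93 and 2.08 CPM against 3.68, 11.1 and 4.72 CPM (log2 difference -1.68, SE 0.42, adjusted p = 0.0932; -0.77 in limma on log2(FPKM + 1)). Its highest value was that of Sham 2. Panx2 was low, at 0.615 ± 0.137 against 0.360 ± 0.227 CPM (adjusted p = 0.446).

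**Figure D2:**
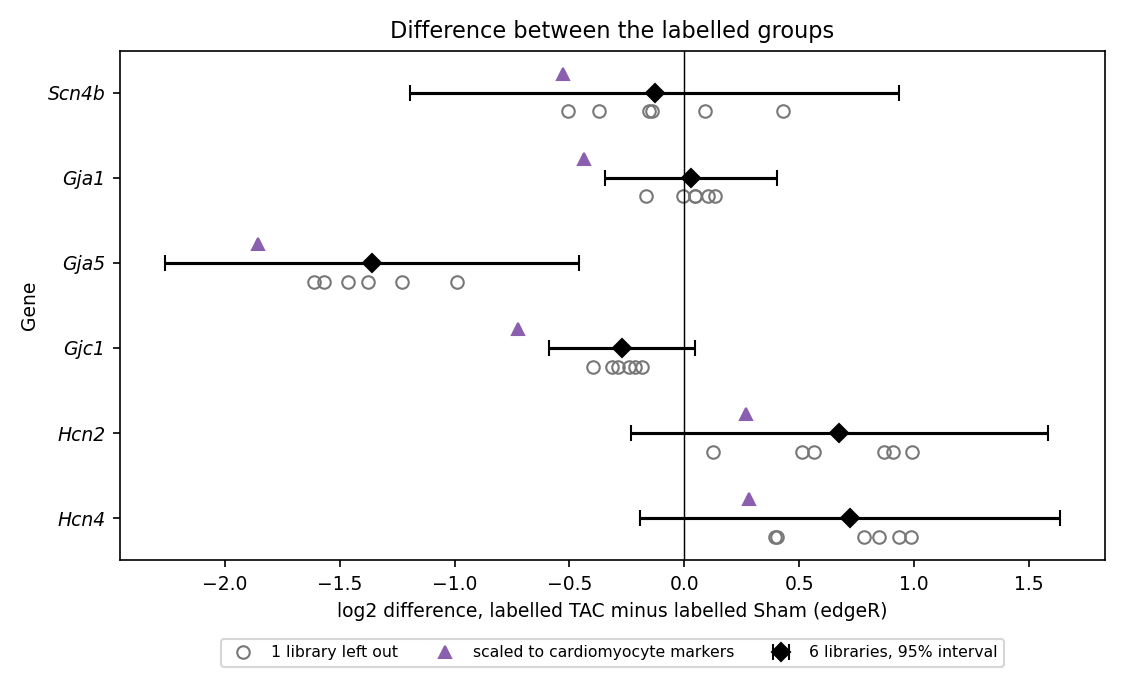
Log2 difference between the labelled groups (horizontal axis) for each gene, with the fit of 6 libraries and its 95% interval as a diamond, fits with 1 library left out as circles and cardiomyocyte scaling as a triangle. The interval of Gja5, -2.26 to -0.46, does not include 0, and those of the other 5 genes do.

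In a bulk sample, fewer cells of a type and less RNA per cell cannot be told apart. Gja5 is made by arterial endothelium, atrial muscle and conduction cells, so markers of these were summed beside it. The 8 arterial endothelial markers summed to 118 to 157 CPM in the libraries labelled TAC and 158 to 189 CPM in the Sham-labelled ones. Of these, 6 of 8 estimates were higher in the latter and none passed. The groups were barely apart, at 156.7 CPM in TAC 3 and 157.5 CPM in Sham 1. This list includes Gja4, the connexin described above whose groups did not overlap, so its sums are not independent of the connexins. The 10 general endothelial markers summed to 1509 to 1595 and 1380.5 to 1742 CPM, ranges that overlap, and none passed. Atrial markers summed to 558 to 713 and 832 to 1137 CPM, with 6 of 7 tested estimates higher in the libraries labelled Sham and none passing. Myl7, on this list, was a small part of the sum, at 0.0967, 1.43 and 11.6 CPM in TAC 1, 2 and 3. In Sham 1, 2 and 3 it had 9.95, 0.141 and 10.2 CPM. It was thus highest in TAC 3, where Gja5 was lowest, and low in Sham 2, where Gja5 was highest. Of 9 Purkinje and bundle markers Nppa passed, and the other 8 summed to 52.7 to 64.7 and 44.2 to 56.5 CPM, with none passing. No marker of these 4 lists was at 0 in all libraries, and their part in the Gja5 difference was not tested.

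Markers of other cell types were summed in the same way. Fibroblast markers summed to 1655 to 1936 CPM in the libraries labelled TAC and 2887 to 3732 CPM in the Sham-labelled ones. Their estimates were higher in the latter in 10 of 10 genes, and 2 passed, beside 1.43% of all tested genes. Activated fibroblast markers, a list chosen with earlier results of these libraries known, summed to 226 to 405 and 1349 to 3002 CPM. Of that list 7 of 10 passed in the same direction, beside 1.11% of all tested genes. Macrophage markers summed to 126 to 218 and 268 to 303 CPM. Their estimates were higher in the libraries labelled Sham in 10 of 10 genes, and none passed. In 5 of them the unadjusted edgeR p was under 0.05, beside 20.9% of all tested genes. The 12 cardiomyocyte markers summed to 65774 to 81059.5 CPM in the libraries labelled TAC and 49932 to 64287 CPM in the Sham-labelled ones. Of these, 11 of 12 estimates were higher for TAC, 6 at an unadjusted edgeR p under 0.05, and none passed. The summed levels of sinoatrial node, smooth muscle and pericyte, mesothelial, neutrophil, lymphocyte, Schwann cell, erythroid and adipocyte markers overlapped between the groups. Their part in the differences of the 6 genes was not tested.

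Both HCN genes had higher means in the libraries labelled TAC, with overlapping groups. Hcn2 (ENSMUSG00000020331, chr10:79716634-79736108) had 11.9, 27.5 and 10.9 CPM in TAC 1, 2 and 3 and 14.7, 8.05 and 8.79 CPM in Sham 1, 2 and 3. TAC 2 was the highest of all, and TAC 1 and TAC 3 lay inside the range of the libraries labelled Sham. The log2 difference was 0.67 (SE 0.39, 95% interval -0.23 to 1.58, adjusted p = 0.369), and without TAC 2 it was 0.12 (adjusted p = 0.857).

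Hcn4 (ENSMUSG00000032338, chr9:58823512-58860955) had 6.38, 9.72 and 4.78 CPM in TAC 1, 2 and 3 and 4.93, 2.15 and 5.70 CPM in Sham 1, 2 and 3, from 61 to 191 counts per library. As for Hcn2, TAC 2 was the highest and Sham 2 the lowest. The log2 difference was 0.72 (SE 0.39, 95% interval -0.19 to 1.64, adjusted p = 0.341). It was 0.41 without TAC 2 and 0.39 without Sham 2, so about as much of it rested on either library. Both genes kept a positive sign under all 16 alternatives and passed under none. Under cardiomyocyte scaling the log2 differences were 0.27 for Hcn2 and 0.28 for Hcn4.

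The shares of Hcn2 and Hcn4 within the family overlapped between the groups. Hcn2 made up 62.0% ± 4.73 of the summed HCN FPKM in the libraries labelled TAC and 61.7% ± 9.81 in the Sham-labelled ones (exact permutation p = 1, adjusted p = 1). Hcn4 made up 31.0% ± 4.06 and 27.9% ± 8.52 (exact permutation p = 0.7, adjusted p = 0.963). Hcn3 had at most 3 counts in any library and was not tested. Of the 4 HCN genes, 3 were tested, with a median log2 difference of 0.67, and none passed under any alternative or at an unadjusted p under 0.05.

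**Figure D3:**
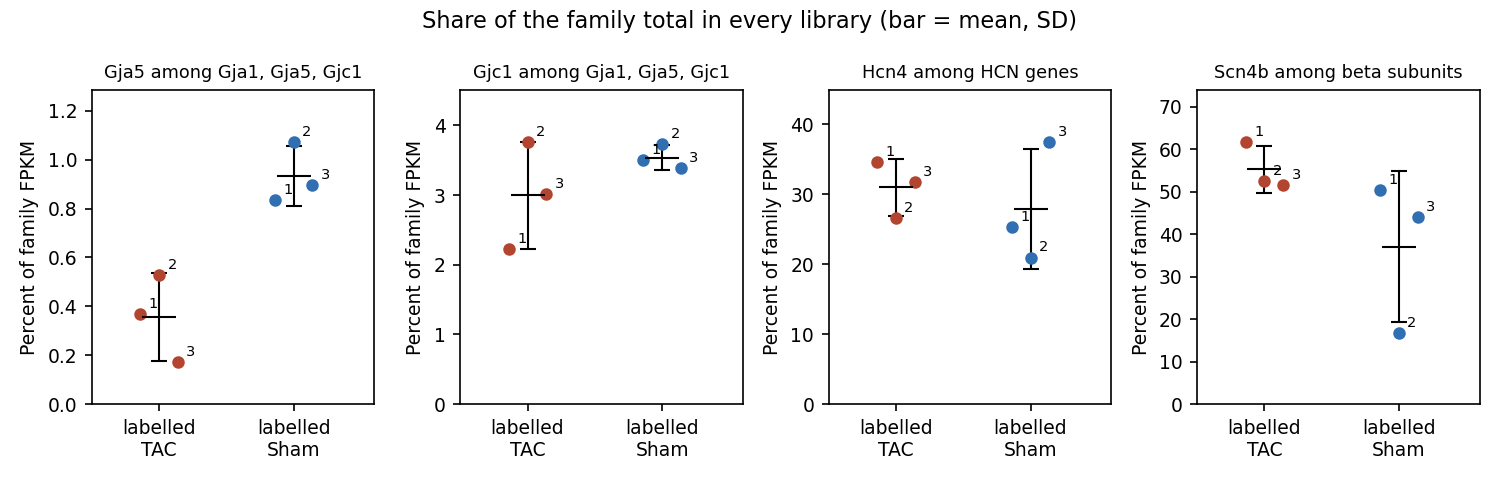
Percent of the summed FPKM of its family (vertical axis, from 0) taken by each named gene in every library, numbered by replicate, with mean and SD as bars. The Gja5 share lies between 0.173% and 0.529% in the libraries labelled TAC and between 0.835% and 1.07% in the Sham-labelled ones, while the Gjc1 and Hcn4 shares overlap.

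The lncRNA table holds 13 transcripts on or within 10 kb of the 6 loci, of which 4 were tested and none passed. Over the whole set of lncRNA transcripts, 0.131% of the 16035 tested passed. Those near Hcn4 are described here by their counts. NONMMUT134463.1, 6706 bp before the locus at chr9:58813052-58816806, had 17, 14 and 24 counts in TAC 1, 2 and 3 and 6, 3 and 2 counts in Sham 1, 2 and 3 (log2 difference 2.44, SE 0.52, adjusted p = 0.141). NONMMUT132640.1, 5872 bp after it at chr9:58866827-58868570, had 15, 15 and 19 counts and 1, 5 and 10 counts (log2 difference 1.71, SE 0.68, adjusted p = 0.313). Both were higher in every library labelled TAC than in any labelled Sham. Both also reached the filter on low counts only through the libraries labelled TAC. With counts this low in the libraries labelled Sham, they could be tested only if higher in those labelled TAC. Their direction is therefore no support for a difference. Over the 4 transcripts within 10 kb of Hcn4 the counts summed to 42, 46 and 55 in TAC 1, 2 and 3 and to 10, 11 and 18 in Sham 1, 2 and 3. That sum was formed after its values were seen and has no test.

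Such a split was frequent among lncRNA transcripts: in 23.6% of those tested the groups were apart, and 18.2% were higher in every library labelled TAC. The order of the libraries also differed from that of the gene: TAC 3 had the highest summed count near Hcn4 and the lowest Hcn4 count of its group. Within 50 kb there were 11 transcripts, of which 4 were tested. The 2 farther ones, which reached the filter in all 6 libraries and were higher in every library labelled TAC, NONMMUT069343.2 and NONMMUT069344.2 (log2 differences 0.93 and 0.66, adjusted p = 0.152 and 0.206), lie on the next gene, Neo1, which had 118 ± 16.2 against 85.1 ± 14.3 CPM (log2 difference 0.47, adjusted p = 0.154). The sources used here give neither the strand of these transcripts nor the strand setting of the counting, so reads of a gene and of a transcript on it cannot be told apart. At the other loci, NONMMUT005648.2 inside Gja1 had 110 to 312 counts (log2 difference 0.36, adjusted p = 0.701), NONMMUT012186.2 inside Gjc1 had 16 to 36 counts (log2 difference -0.16, adjusted p = 0.869), and none lay within 50 kb of Gja5.

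**Figure D4:**
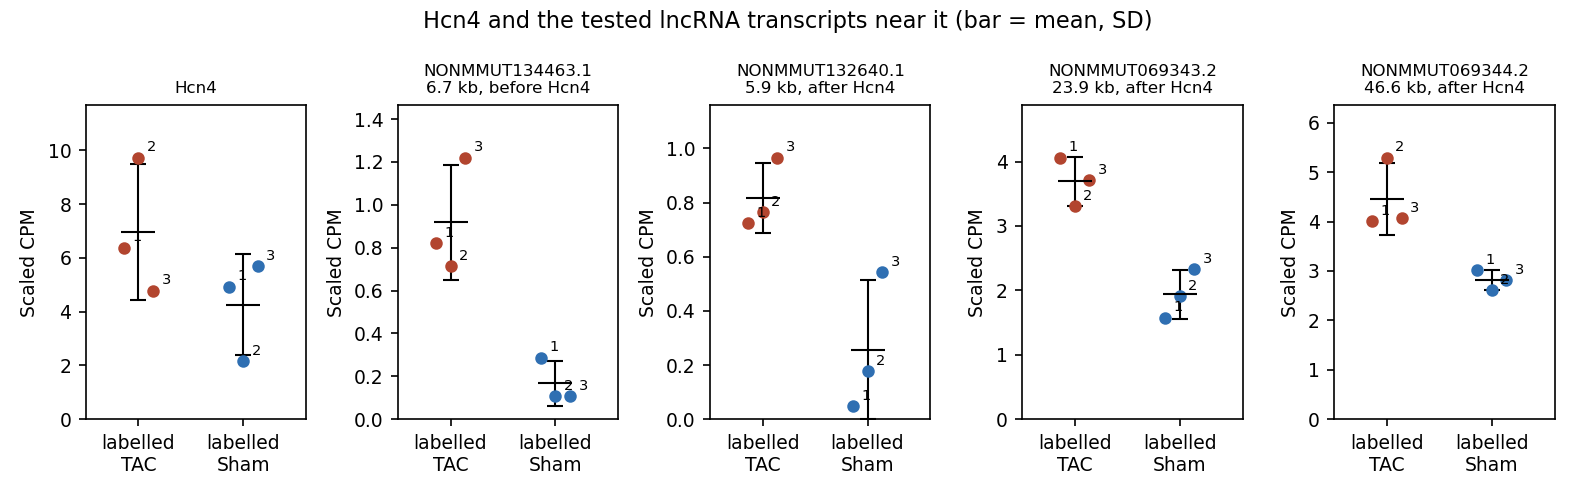
Scaled CPM (vertical axis, from 0) of Hcn4 and of the 4 tested lncRNA transcripts within 50 kb of it in every library, with the distance to the Hcn4 locus in each title and mean and SD as bars. The groups overlap for Hcn4 and are apart for the 4 transcripts, none of which passed the test and 2 of which were tested only because they were high in the libraries labelled TAC.

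Scn4b (ENSMUSG00000046480, chr9:45138437-45154152) had 46.9, 36.4 and 24.0 CPM in TAC 1, 2 and 3 and 64.3, 15.9 and 37.6 CPM in Sham 1, 2 and 3. The highest and the lowest library both carried the label Sham, so the libraries labelled TAC lay inside the range of the others. The log2 difference was -0.13 (SE 0.46, adjusted p = 0.900), with a 95% interval from -1.19 to 0.93 that includes a 2-fold difference downward. It was 0.43 without Sham 1 and -0.50 without Sham 2, so no direction is given.

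The other beta subunits had negative estimates, on the Sham side. Scn3b had 1.29 ± 0.312 against 2.60 ± 1.19 CPM (log2 difference -1.02, adjusted p = 0.198; -0.11 in limma on log2(FPKM + 1)) and Scn2b 0.553 ± 0.163 against 0.995 ± 0.169 CPM (log2 difference -0.85, adjusted p = 0.231; -0.08 in limma on log2(FPKM + 1)). All 4 beta subunits had negative estimates, with a median of -0.94, and none passed. An unadjusted p under 0.05 was seen in 3 of them, beside 20.9% of all tested genes.

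The share of Scn4b among the beta subunits was lower in each Sham library than in any TAC library. Scn4b made up 61.6%, 52.5% and 51.6% of the summed beta subunit FPKM in TAC 1, 2 and 3 and 50.4%, 16.8% and 44.0% in Sham 1, 2 and 3. The lowest TAC share and the highest Sham share were close, and in counts rather than FPKM the groups overlapped. The exact permutation p was 0.1, the smallest this design allows, with an adjusted p of 0.367. Of 10 alpha subunit genes 6 were tested, 2 with a higher estimate for TAC and 4 for Sham, and none passed or reached an unadjusted p under 0.05. Scn7a, an atypical alpha subunit that senses sodium, had 76.2 ± 11.8 against 98.7 ± 16.3 CPM (adjusted p = 0.244). Scn10a and Scn2a1, best known from neurons, had 0.966 to 1.53 against 0.282 to 1.196 CPM (adjusted p = 0.385) and 1.59 ± 0.352 against 2.18 ± 0.590 CPM (adjusted p = 0.435). Scn10a reached the filter on low counts only through the libraries labelled TAC.

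Genes that place or bind these channels did not pass as single genes. Of 26 sodium channel and connexin partners, 15 had a higher estimate for TAC, 11 for Sham, and none passed (median log2 difference 0.10). At an unadjusted p under 0.05 there were 4, beside 20.9% of all tested genes, and DESeq2 called 1, beside 7.79%. Nos1, the neuronal nitric oxide synthase gene, had 0.234 ± 0.108 against 1.27 ± 0.657 CPM (log2 difference -2.40, adjusted p = 0.0846; -0.10 in limma on log2(FPKM + 1)). It reached the filter on low counts only through the libraries labelled Sham. With counts this low in the libraries labelled TAC, Nos1 could be tested only if higher in those labelled Sham. Cnst, whose product consortin takes part in connexin transport to the membrane, had 93.6 ± 13.6 against 66.0 ± 8.53 CPM (adjusted p = 0.124). Csrp3, a muscle LIM protein gene, had 605 ± 84.4 against 921 ± 304 CPM (adjusted p = 0.197), and Ank2, the ankyrin-B gene, 321 ± 40.7 against 239 ± 54.2 CPM (adjusted p = 0.236).

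Of 19 intercalated disc genes, which encode the cell junctions where Gja1 sits, 1 passed, beside 1.43% of all tested genes. Ctnna3, the alpha-T-catenin gene, was 1.71-fold higher in libraries with the TAC label than with the Sham label, at 106 ± 7.66 against 61.9 ± 9.50 CPM (log2 difference 0.78, SE 0.13, adjusted p = 0.0448). Every library labelled TAC, from 98.3 to 114 CPM, was above every one labelled Sham, from 53.6 to 72.3 CPM. It passed under 7 of 16 alternatives and in 1 of 6 fits with a library left out, without Sham 1 (adjusted p = 0.0377), and not when scaled to the cardiomyocyte markers (log2 difference 0.36, adjusted p = 0.184). Tmem43 had 24.2 ± 3.15 against 43.5 ± 9.39 CPM (adjusted p = 0.0668), Dsg2, a desmosomal cadherin gene, 177 ± 11.5 against 118 ± 20.5 CPM (adjusted p = 0.0934), and Des, the desmin gene, 1827 ± 248 against 3188 ± 1009 CPM (adjusted p = 0.119). The list had 11 estimates on the TAC side and 8 on the Sham side, with a median of 0.07.

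None of the 19 tested transcription factors of the conduction system and chambers passed (median log2 difference 0.05). An unadjusted p under 0.05 was seen in 5, beside 20.9% of all tested genes, and DESeq2 called 1, beside 7.79%. Prox1 had 192 ± 9.88 against 141 ± 16.98 CPM (adjusted p = 0.109), and Tbx5, known in mice to act on Gja5 and Nppa, had 29.0 ± 0.534 against 22.2 ± 1.87 CPM (adjusted p = 0.121). Tbx18, of the sinoatrial lineage, had 7.99 ± 0.636 against 11.1 ± 0.750 CPM (adjusted p = 0.125), and Hey2, a ventricular factor, 11.5 ± 1.83 against 8.00 ± 0.341 CPM (adjusted p = 0.134). In each of these 4 genes, named for having the smallest p of the list, the groups did not overlap. Over the list that was so in 9 of the 19 tested, beside 27% of all tested genes.

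For each member, the genes with the most similar profile over the 6 libraries were found as those with the smallest root mean square difference in log2 CPM after centring each gene on its mean, among 11114 genes. For Gja5 these were Col3a1, a fibrillar collagen gene (0.136), Tlr13, a Toll-like receptor gene (0.167), and Hhipl1 (0.190), where the median gene lay at 0.959. Col3a1 had 294, 362 and 122 CPM in TAC 1, 2 and 3 and 500.2, 802 and 717 CPM in Sham 1, 2 and 3, the same order of libraries as Gja5. For Hcn4 they were Ehhadh, of peroxisomal fatty acid oxidation (0.135), Rps6ka5, a kinase gene (0.189), and Thrb, a thyroid hormone receptor gene (0.190), with the median gene at 0.666. Thrb had 50.3, 53.8 and 37.2 CPM in TAC 1, 2 and 3 and 37.4, 17.6 and 37.0 CPM in Sham 1, 2 and 3.

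For Hcn2 the most alike genes were Prodh (0.230), Wnk4 (0.242) and Uros (0.252), with the median gene at 0.616. For Scn4b they were Bmper (0.232), Zc3h6 (0.238) and Igfbp4 (0.253), with the median at 0.688. Gja1 and Gjc1 varied little, so their nearest genes were closer: Slc11a2 (0.0566), Zfp770 (0.0675) and Tpp2 (0.0706) for Gja1, and Pnpla6 (0.0340), Cacnb3 (0.0383) and Chfr (0.0427) for Gjc1. These are the closest of many genes over 6 libraries, and the likeness is a description.

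**Figure D5:**
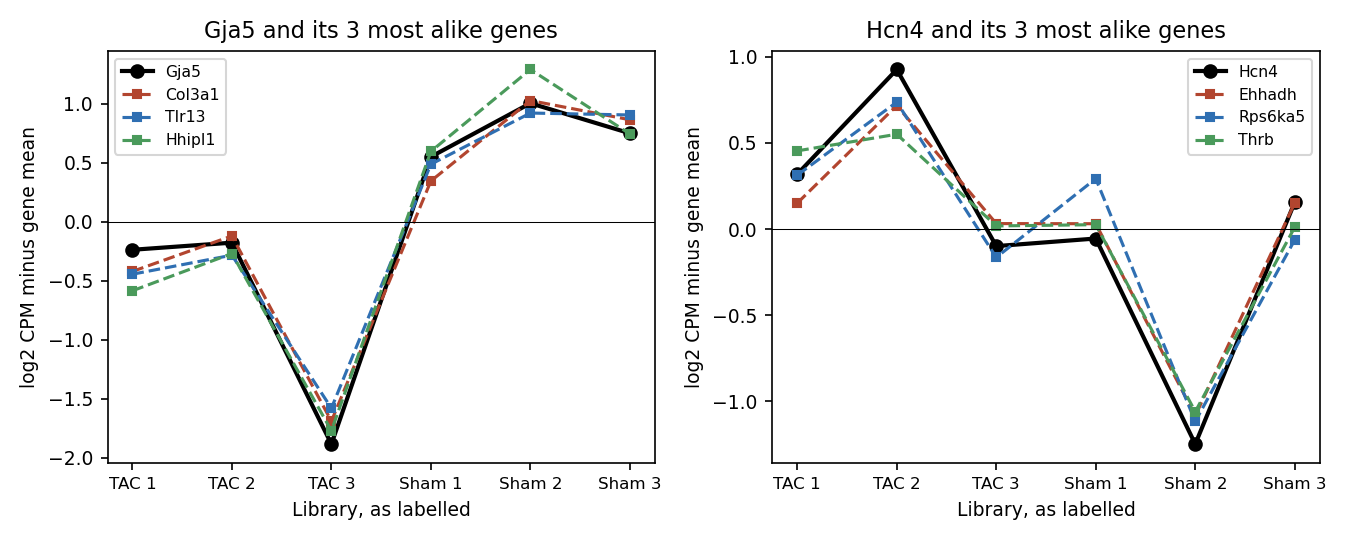
Log2 CPM minus the gene's mean (vertical axis) in each library (horizontal axis) for Gja5 and Hcn4 and the 3 genes most alike to each. Gja5 and its 3 genes are lowest in TAC 3, and Hcn4 and its 3 genes are lowest in Sham 2.

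The members followed different libraries rather than a common order. TAC 3 was the lowest library for Gja1, Gja5 and Gjc1, and Sham 2 was the lowest for Scn4b, Hcn2 and Hcn4 and the highest for Gja5 and Gjc1. TAC 2 was the highest for both HCN genes.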

How the data were processed

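RNA-seq was done on left ventricle in 6 libraries, 3 labelled TAC and 3 labelled Sham, each tied to its column by its description label. Per the submitters' processing notes, HISAT2 2.0.4, StringTie 1.3.0 and GRCm38 (mm10) were used. The sources used here do not give their roles, the annotation, the counting program or its strand setting. The authors deposited raw read counts, 1 whole number per gene or lncRNA transcript and library. The FPKM deposited by the authors divide by a length and the library total.

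The whole tables were fitted with edgeR 4.0.16 (R 4.3.3), quasi-likelihood, TMM scaling, filterByExpr (minimum count 10), no block and Benjamini-Hochberg adjustment over all features tested. lncRNA fits used library sizes and TMM factors of the gene table. SE is the size of the estimate over the root of F. Limma 3.58.1, DESeq2 1.42.0, other scalings and filters, a replicate block and leaving out libraries were alternatives. Simulated for this comparison over 15198 genes, the test recovered 46% of 2-fold and 89.2% of 4-fold changes, with 7.14% of calls false. Named are the 6 members, up to 4 genes with the smallest p per list, further passing list members and the 3 most alike genes per member. Members and lists were chosen with earlier results of these data known. Promoters are from RefSeq (GRCm38.p6), matched by symbol for 5 of 6 members, without Gjc1. Some genes counted in their lists are not reported here.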

Additional observations from a re-analysis of the deposited data

How the results depend on the processing

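Hcn2, Hcn4, Gjc1 and Gja5 kept their sign under every alternative that gave a value, 16 each and 15 for Gja5, which a minimum mean FPKM of 1 removed. Gja5 ran from -1.86 to -0.68, the latter in limma with a pseudocount of 1. Gja5 passed with DESeq2 (-1.36) and with cardiomyocyte scaling (-1.86), Gjc1 with the latter (-0.72), so the members that passed were 1 and 2 in those fits and 0 in the other 14. Scaling to cardiomyocyte markers moved the median gene to -0.43. Gja1 turned negative without TMM (-0.039), in limma with a pseudocount of 0.1 (-0.057) or 1 (-0.057), with cardiomyocyte scaling (-0.44), and its fits with 1 library left out ran from -0.17 to 0.13. Scn4b turned positive with the replicate block (0.015), and its fits with 1 library left out ran from -0.50 to 0.43. Tbx5 was -0.055 with cardiomyocyte scaling. The cause of these changes was not tested.

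Genes past the threshold numbered 217, 1184 with DESeq2, 338 without TMM, 432 without a filter, 2216 with cardiomyocyte scaling, 41 with the replicate block and 0 to 397 with 1 library left out (0 without TAC 1, 10 without TAC 2, 22 without TAC 3, 397 without Sham 1, 24 without Sham 2, 40 without Sham 3). Without TAC 1 the fit by edgeR, the tool used throughout, had 2564 genes at an unadjusted p under 0.05. With DESeq2 the calls were 1 of the connexins, 1 pannexin, 1 beta subunit, 1 partner, 4 disc genes and 1 transcription factor. With cardiomyocyte scaling they were 3, 1, 2, 5, 3 and 1, and 2 alpha subunits. Beta subunits had 1 without TMM, 1 in limma with either pseudocount and 1 without a filter, and disc genes had 2 without TMM, 0 in limma with either, 2 without a filter, 0 with the replicate block and 0 to 3 with 1 library left out. The Gja5 share differed by -0.58 percentage points in FPKM and by -1.25 in counts.

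No pairing by replicate number was seen: deviations from the group means correlated at -0.14, -0.12 and -0.10 between same-numbered libraries. With 3 libraries a group these correlations cannot exclude a pairing. None of the 6 genes passed with or without the block, while over all genes the number passing was 41 with it and 217 without. With 3 libraries a group, 46% of the 2-fold changes simulated over 15198 genes were recovered. Recovery was not simulated for Gja5, Hcn2, Hcn4 or Scn4b alone, so that share is not their own detection rate. Over all 6 libraries their levels varied more than those of most genes. The percent of tested genes with a smaller ratio of highest to lowest CPM ran from 88.1% (Hcn2) to 96.6% (Gja5). That ratio spans both groups, so it includes any difference between them. Within the libraries labelled TAC and within those labelled Sham it was 3.26 and 1.37 for Gja5 and 2.52 and 1.83 for Hcn2. For Hcn4 it was 2.03 and 2.65, and for Scn4b 1.95 and 4.04. A difference under 2-fold in any of them may therefore have gone undetected.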
